A study of Mus musculus with 24 samples.

Results

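Class I antigen presentation was followed through 10 genes in sorted mouse CD8 T cells. They were picked by symbol and not by level, and are 10 of the 24421 genes in the count files: the heavy chain genes H2-K1 and H2-D1, the light chain gene B2m, the peptide transporter genes Tap1 and Tap2, the tapasin gene Tapbp, the immunoproteasome genes Psmb8, Psmb9 and Psmb10, and the regulator gene Nlrc5. The RNA came from CD8 T cells gated as CD45+CD3+CD8+ in pancreas or blood, in a study of pancreatic ductal adenocarcinoma progression. There were 12 libraries from KC pancreas (3 at 4 weeks after birth, 2 at 9, 3 at 13, 2 at 20 and 2 at 30) and 9 from KC blood (2, 1, 3, 1 and 2 at the same ages). WT B6 mice gave 2 libraries from pancreas (Sample_W1P8 at 9 weeks and Sample_W3P8 at 30 weeks) and 1 from blood (Sample_W3B8 at 30 weeks). KC is the name the labels use; the alleles, the promoter that drives them and any pooling of animals are not given in the sources used here. Libraries are named by their titles, in which P8 marks pancreas and B8 blood.

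A class I molecule shows peptides from inside the cell to CD8 T cells. The proteasome cuts proteins, TAP1 and TAP2 pump the peptides into the endoplasmic reticulum, tapasin helps to load them, and the heavy chain travels to the surface with beta-2-microglobulin. Interferon-gamma replaces 3 catalytic proteasome subunits by the immunoproteasome forms, and NLRC5 acts with factors at the conserved SXY module of class I promoters. T cells are themselves rich in class I molecules and in NLRC5, so the genes are read here in the cells that normally do the recognising.

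Of the 10 genes, 7 lie on chromosome 17, 2 (Psmb10 and Nlrc5) on chromosome 8 and B2m on chromosome 2. All are protein-coding genes in the GENCODE M21 annotation of mm10. Psmb9, Tap1, Psmb8 and Tap2 follow each other within 34.3 kb of chromosome 17, from base 34181987 to base 34216321. Psmb9 and Tap1 are transcribed away from each other, and their annotated spans overlap, with starts 211 bases apart.

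RefSeq promoter windows of build GRCm38.p6 were found for 8 of the 10 genes, Tap2 and Nlrc5 being the others. Each window holds 250 bases before and 50 bases after the RefSeq start. The windows of B2m, H2-K1 and H2-D1 are shown because they hold the letters of the X2 and Y elements of that module at one spacing, and the Tap1 window because it shares 275 bases with that of Psmb9 on the other strand. Capitals mark GAAANNGAA (an interferon response core), TGACG (the X2 or CRE core) and CCAAT (the Y box), each searched on both strands, so that CGTCA and ATTGG are the same elements read from the other strand. The windows lie at chr2:122147437-122147736 on the plus strand (B2m), chr17:34000298-34000597 on the minus strand (H2-K1), chr17:35262844-35263143 on the plus strand (H2-D1) and chr17:34187306-34187605 on the plus strand (Tap1).
B2m: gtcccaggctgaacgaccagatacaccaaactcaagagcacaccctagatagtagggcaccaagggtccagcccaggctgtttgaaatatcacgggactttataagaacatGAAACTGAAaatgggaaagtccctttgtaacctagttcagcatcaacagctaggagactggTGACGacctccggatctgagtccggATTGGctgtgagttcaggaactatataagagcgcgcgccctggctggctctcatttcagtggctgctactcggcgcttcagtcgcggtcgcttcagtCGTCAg
H2-K1: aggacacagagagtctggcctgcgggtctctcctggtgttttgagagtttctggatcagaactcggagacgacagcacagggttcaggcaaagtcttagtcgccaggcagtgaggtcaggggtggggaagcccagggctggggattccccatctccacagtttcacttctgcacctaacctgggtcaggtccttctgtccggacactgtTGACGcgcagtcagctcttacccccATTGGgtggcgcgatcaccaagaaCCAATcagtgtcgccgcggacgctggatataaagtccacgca
H2-D1: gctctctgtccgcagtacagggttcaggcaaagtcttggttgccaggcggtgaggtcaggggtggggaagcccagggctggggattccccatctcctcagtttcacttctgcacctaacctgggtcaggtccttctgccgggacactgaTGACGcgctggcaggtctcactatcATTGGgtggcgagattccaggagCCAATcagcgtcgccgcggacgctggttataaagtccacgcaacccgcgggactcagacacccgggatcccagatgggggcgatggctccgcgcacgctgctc
Tap1: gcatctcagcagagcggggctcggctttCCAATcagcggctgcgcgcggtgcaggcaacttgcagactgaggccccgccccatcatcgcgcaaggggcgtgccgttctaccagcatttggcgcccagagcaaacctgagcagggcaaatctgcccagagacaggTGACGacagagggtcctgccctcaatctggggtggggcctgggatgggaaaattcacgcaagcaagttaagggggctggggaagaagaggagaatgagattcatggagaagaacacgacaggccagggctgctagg

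In B2m, H2-K1 and H2-D1 exactly 20 bases stood between TGACG and the next ATTGG. That spacing, read off these windows and then counted, occurred in 31 of 32851 promoter windows of the same length (0.0944%), including the window of another class I gene, H2-M3. H2-K1 and H2-D1 shared a run of 47 identical bases, and 73.3% of 240 bases matched in an alignment without gaps. Tap1 and Psmb9 held TGACG and CCAAT as well, farther apart, and in the printed Tap1 window CCAAT stands before TGACG. So 5 of the 8 genes with a window held both elements, which 7.73% of all windows did. These 5 are not separate occurrences. The elements of Tap1 and Psmb9 are the same bases read from opposite strands, and the windows of H2-K1 and H2-D1 are alike. TGACG was in 20.8% of all windows and CCAAT in 37.4%. GAAANNGAA, found in 8.56% of windows, occurred in B2m alone among the 8, and TTCNNNGAA (a STAT element, 8.30% of windows) in Psmb8 alone. The windows of H2-K1 and H2-D1 both hold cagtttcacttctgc, whose other strand has the parts of GAAANNGAA in the opposite order. That order was not searched, so these windows are not shown to lack an interferon response element. The Tapbp window held CCAAT at 2 places and the Psmb10 window held none of the 4 motifs. A match is a run of letters and not a measured binding site.

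Gene counts per library ran from 6352070 to 16716169 (median 9602258), with 10066 to 12949 genes detected. The 7 T cell markers took 0.652% to 1.85% of counts in KC pancreas and 0.614% to 1.51% in KC blood, and each of the 7 was detected in at least 1 library. The libraries were grouped into 2 sets of 12 by low traces of trace genes, shared mainly within a set. A trace gene had at least 100 CPM in 1 library, its source, and at most 5% of that level elsewhere. Set 1 holds KC pancreas of 4 and 13 weeks, the KC blood libraries Sample_42B8, Sample_43B8 and Sample_131B8, and all 3 WT libraries; set 2 holds the rest. Detection of the 95 trace genes was 92.4% inside the set of their source and 47.7% outside it, so the sets were not free of each other's traces. At trace genes, a library of the same set as the source had the gene at a median of 0.205% of its level there. None of the 10 class I genes fell to that share of its own highest value in any library. As a median, the share sets no upper bound on traces. The lowest Tap2 value, 0.455 CPM in Sample_42B8, was close to that share of its highest (0.390 CPM). The part of traces in the lowest Tap2 values was not tested. Because the labels do not say whether libraries are separate animals, p-values measure the spread between these libraries only. In bulk RNA, fewer cells of a type and less RNA per cell cannot be told apart.

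B2m, the light chain of every classical class I molecule, dominated the pathway. Per kilobase of exon its median over 24 libraries was 8357 CPM per kb (CPM scales a count by the sum of all gene counts of its library). H2-K1 and H2-D1, the heavy chains of H-2K and H-2D, stood at 661 and 646 CPM per kb. Per kb, no library's B2m level came down to the highest heavy chain level of any library, which was 2444 CPM per kb for H2-D1. Here the length is the union of all annotated exons: 860 bases for B2m, 2938 for H2-K1 and 2579 for H2-D1. Without division by length the levels overlapped, with 6303 CPM for H2-D1 in Sample_131B8 and 3136 CPM for B2m in Sample_43P8. The levels of the 2 heavy chains overlapped on either scale. The other medians were 44.5 CPM per kb for Tapbp, 44.1 for Psmb8, 33.6 for Psmb9, 14.1 for Tap1, 14.0 for Psmb10, 12.4 for Nlrc5 and 4.29 for Tap2. Neighbours in that order overlapped across libraries. B2m took 59.2% of the counts of the 10 genes, H2-K1 18.3% and H2-D1 16.0%. Together the 10 genes took 0.659% to 2.72% of a library's counts (median 1.27%).

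The 3 most abundant genes, those of the surface molecule, had the narrowest ranges on CPM, though not for their level. From the lowest to the highest of 24 libraries, CPM differed 4.70-fold for H2-K1, 5.53-fold for B2m and 7.95-fold for H2-D1. The differences were 10.04-fold for Psmb8, 42.5-fold for Tap1, 85.9-fold for Psmb9, 104-fold for Psmb10, 122-fold for Tapbp, 244-fold for Nlrc5 and 419-fold for Tap2. With TMM effective library sizes, whose factors ran from 0.450 to 1.80, the same quantity was 15.5-fold for B2m, 10.5-fold for H2-K1, 22.3-fold for H2-D1, 13.5-fold for Psmb8 and 249-fold for Tap2, so that Psmb8 then varied less than B2m and H2-D1. Spread is larger at low levels for genes in general, so each was set against genes with a like mean level. The SD of log2(CPM + 1) was 1.92 for Nlrc5 against a median of 1.29 for 1698 such genes, above 95.6% of them. For Psmb8 it was 0.81 against 1.29 for 1694 genes, above 6.32% of them. Nlrc5 and Psmb8, at nearly the same mean level, thus stood near opposite ends. The surface genes varied more than most genes of like level: the SD of H2-K1 was above 78.5% of 79 such genes, that of H2-D1 above 82.5% of 103 and that of B2m above 83.3%, which rests on 6 genes. Each library had at most 3 of the 10 genes under 10 CPM, and 9 libraries had none.

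**Figure D1:**
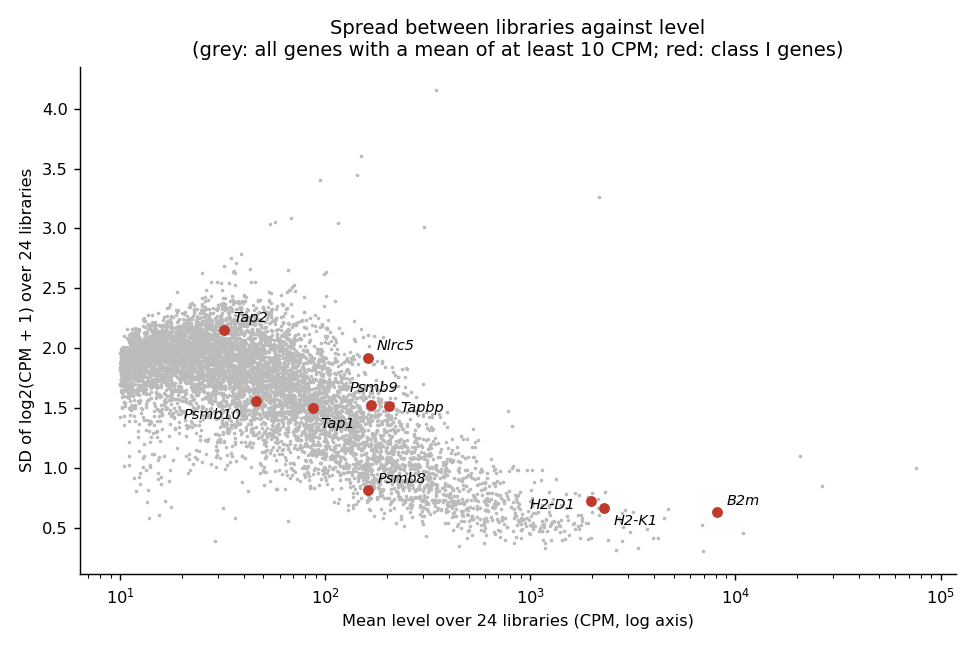
Each grey point is a gene with a mean of at least 10 CPM over the 24 libraries; the x axis is its mean CPM on a log axis and the y axis the SD of log2(CPM + 1). The 10 class I genes are red: Nlrc5 (SD 1.92) sits at the upper edge of its level and Psmb8 (0.81) at the lower edge, while B2m, H2-K1 and H2-D1 lie among the most abundant genes.

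**Figure D2:**
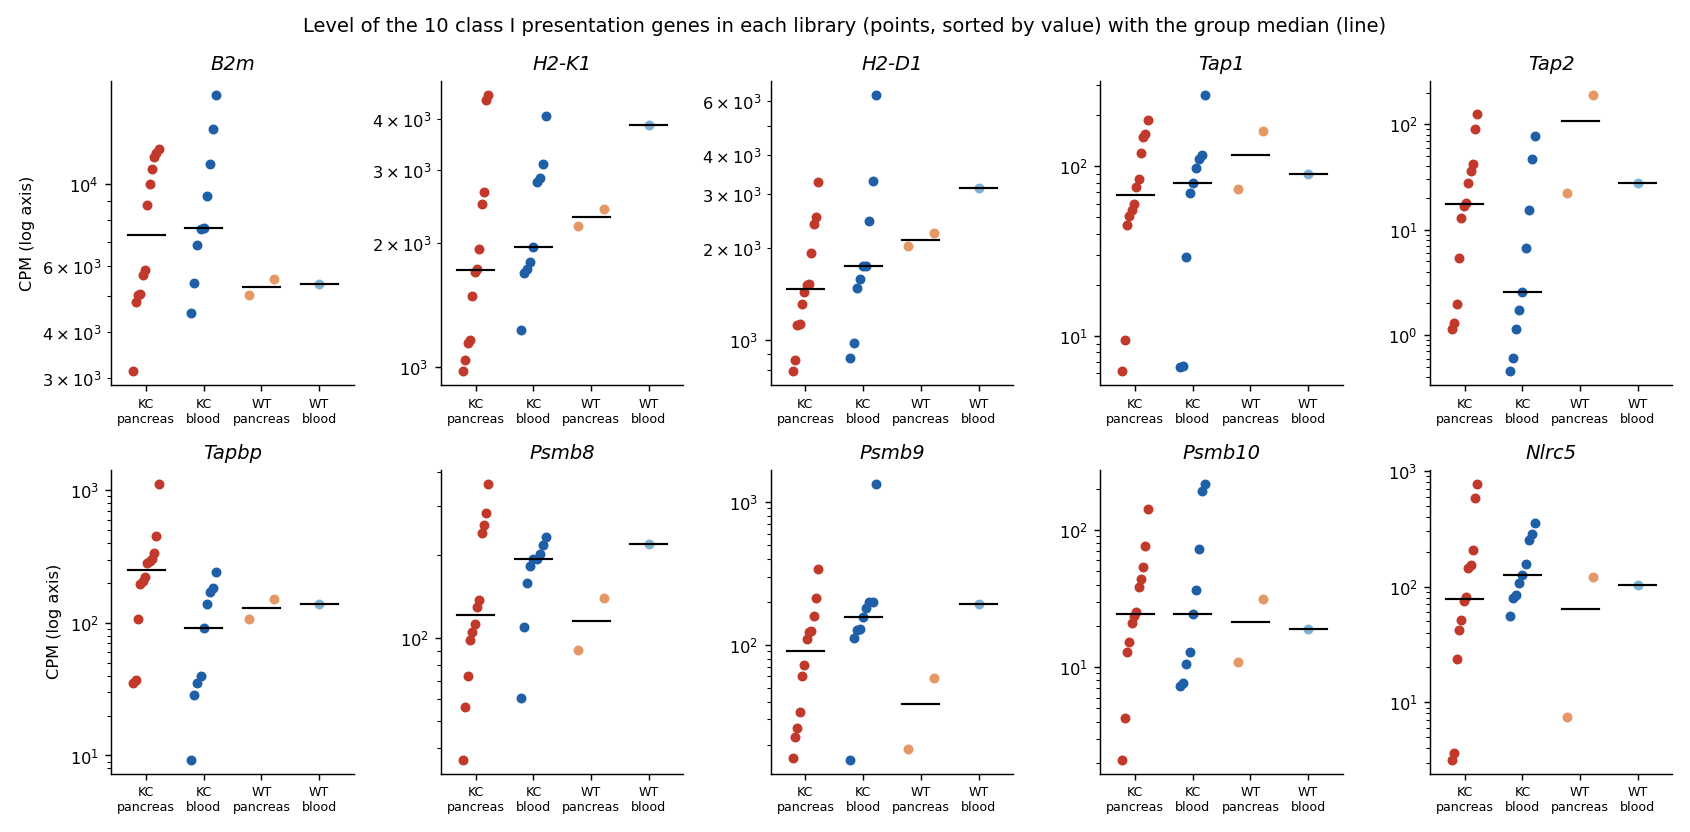
CPM of each gene in each library on log axes, with points sorted by value within KC pancreas, KC blood, WT pancreas and WT blood, and a line at the group median. KC pancreas and KC blood overlap for all 10 genes; single high libraries stand out for Psmb9, Tap1 and H2-D1 in KC blood and for Tapbp in KC pancreas.

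KC pancreas was set against KC blood to ask how the pathway differs between cells that sit in the organ and cells in circulation. None of the 10 genes passed the test (edgeR quasi-likelihood test, Benjamini-Hochberg adjusted p under 0.05 over 11059 genes, age as a factor), where 0.0904% of all tested genes did, 10 in number. At an unadjusted p under 0.05 there was 1 of the 10 (Tapbp), against 9.85% of all tested genes. DESeq2 called the same gene, among 487 calls over all genes where edgeR had 10. The median log2 fold change of the 10 was -0.04, beside -0.12 for all tested genes. Above 0 were 5 of 10, beside 45.4% of all tested genes. In simulated counts this fit recovered 10% of planted changes of log2 2 and 62% of those of log2 4, so smaller differences could be missed.

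B2m had 3136, 7304 and 12449 CPM (lowest, median and highest) in KC pancreas, against 4491, 7608 and 17353 CPM in KC blood. Its mean was 7971 ± 3386 CPM in KC pancreas (SD, n = 12) and 9324 ± 4212 CPM in KC blood (SD, n = 9), with a log2 fold change of -0.11 ± 0.40 (SE). The groups covered nearly the same range. In fits without an age term, the log2 fold change was -1.27 within set 1 alone and 0.88 within set 2 alone.

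H2-K1 had 974, 1714 and 4579 CPM in KC pancreas, against 1225, 1952 and 4078 CPM in KC blood, a log2 fold change of 0.06 ± 0.35. H2-D1 had 792, 1472 and 3280 CPM in KC pancreas, against 878, 1744 and 6303 CPM in KC blood, a log2 fold change of -0.19 ± 0.36. The H2-D1 value of 6303 CPM belonged to Sample_131B8 (13 weeks). Both genes have near-identical class I copies among the H2-Q and H2-T genes, and 15.8% to 22.8% of tallied reads were not unique and went to no gene, so their counts are uncertain.

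Tapbp, whose product tapasin holds empty class I molecules at the transporter, came nearest to a difference. It had 35.5, 253 and 1125 CPM in KC pancreas, against 9.26, 91.1 and 243 CPM in KC blood. The highest pancreas library was Sample_131P8 (13 weeks, 1125 CPM), and its counterpart by title number, Sample_131B8, was the lowest in blood. The log2 fold change was 1.82 ± 0.54 (p = 0.00153, adjusted p = 0.178 with edgeR), rank 95 of 11059 genes. With DESeq2, which made 487 calls over all genes in this comparison, it was 1.91 (adjusted p = 0.0196). Over the alternatives the adjusted p ran from 0.0196 to 0.448, the largest with the set as a term (1.56). In fits without an age term, the log2 fold change was 3.49 within set 1 and 1.35 within set 2. In 9 of 9 KC libraries of pancreas and blood with the same title number and age, Tapbp was higher in pancreas on CPM, with a near tie in Sample_43P8 (35.5 CPM) and Sample_43B8 (35.2 CPM). With TMM effective library sizes it was higher in 8 of 9. The numbers pair titles, and the labels do not say that they mark an animal. In WT mice of 30 weeks Tapbp had 107 CPM in pancreas (Sample_W3P8) and 138 CPM in blood (Sample_W3B8). Its exons overlap those of Zbtb22 and Gm19412, and the use of strand in counting is not given, so reads of those genes cannot be told apart.

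Markers of other cells were read beside Tapbp, since every nucleated cell uses it. The 9 class II presentation genes took 0.00375% to 0.104% of counts in KC pancreas and 0.00124% to 0.0249% in KC blood (exact permutation test, p = 0.0291, adjusted over 13 lists 0.102). Of these, 0 of 6 tested genes passed in the gene test. The 5 fibroblast markers took 0% to 0.0416% in KC pancreas and 0% to 0.000113% in KC blood (exact permutation test, p = 0.0313, adjusted 0.102). Of these, 0 of 2 tested genes passed, and both had an unadjusted p under 0.05, with a median log2 fold change of 4.28. The 8 acinar genes took 1.0e-05% to 0.710% in KC pancreas and 9.0e-06% to 0.00629% in KC blood (adjusted p = 0.154). The 5 platelet markers took 0.00112% ± 0.00262 in KC pancreas (SD, n = 12) and 0.0145% ± 0.00804 in KC blood (SD, n = 9), with an exact permutation adjusted p of 0.000177. The 6 erythroid markers, 4 of them at 0 throughout, took 0.000281% ± 0.000248 in KC pancreas (SD, n = 12) and 0.00523% ± 0.00431 in KC blood (SD, n = 9), with the same exact permutation adjusted p. Their part in the Tapbp values was not tested.

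Tap1 and Tap2 form the transporter as a pair. Tap1 had 6.19, 67.7 and 186 CPM in KC pancreas, against 6.58, 79.2 and 263 CPM in KC blood, a log2 fold change of 0.13 ± 0.71. Tap2 had 1.13, 17.4 and 125 CPM in KC pancreas, against 0.455, 2.55 and 78.2 CPM in KC blood, a log2 fold change of 1.70 ± 1.17 (p = 0.155, adjusted p = 0.685 with edgeR). Tap2 was higher in pancreas in 5 of 9 same-numbered libraries. Its exons overlap those of Gm20496 and Gm15821.

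Psmb8 encodes LMP7 and Psmb9 LMP2, the immunoproteasome subunits encoded beside the transporter genes, and Psmb10 encodes MECL-1. Psmb8 had 36.2, 121 and 363 CPM in KC pancreas, against 60.5, 193 and 232 CPM in KC blood, a log2 fold change of 0.03 ± 0.54. Psmb9 had 16.1, 91.1 and 341 CPM in KC pancreas, against 15.6, 157 and 1344 CPM in KC blood, a log2 fold change of -0.84 ± 0.69. A single blood library, Sample_42B8 (4 weeks), held the 1344 CPM; without it the log2 fold change was 0.31. Psmb10 had 2.10, 24.5 and 143 CPM in KC pancreas, against 7.31, 24.2 and 218 CPM in KC blood, a log2 fold change of -0.32 ± 0.87. Nlrc5, the class I transactivator, had 3.18, 78.4 and 776 CPM in KC pancreas, against 55.7, 126 and 351 CPM in KC blood, a log2 fold change of -0.38 ± 0.75. Its blood values lay within its pancreas values: 4 of the 12 pancreas libraries were under 50 CPM (Sample_41P8, Sample_131P8, Sample_133P8 and Sample_303P8) and none of the 9 blood libraries was. Exons of Psmb8 overlap those of Gm20496, and exons of Nlrc5 those of 9330175E14Rik.

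**Figure D3:**
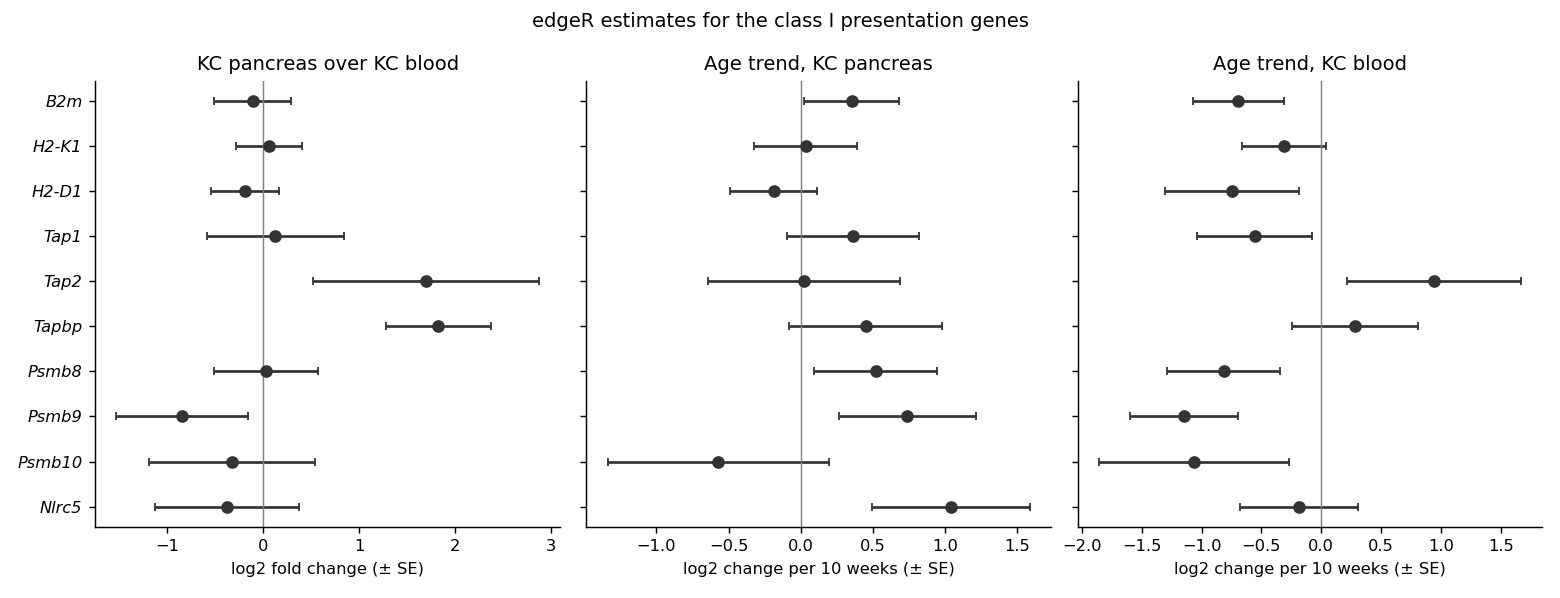
edgeR estimates with their SE for the 10 genes: the log2 fold change of KC pancreas over KC blood (left), and the log2 change per 10 weeks in KC pancreas (middle) and KC blood (right). Tapbp (1.82 ± 0.54) is the farthest from 0 for its SE on the left; on the right, 8 of 10 estimates lie below 0, and none passed the threshold in any of the 3 panels.

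Other genes of the pathway did not pass between tissues either: 0 of 11 tested other class I heavy chain genes, 0 of 14 loading and trimming genes, 0 of 3 standard catalytic subunits, 0 of 12 other 20S subunits, 0 of 4 PA28 genes, 0 of 16 transcription factors of class I genes, 0 of 11 interferon receptor and signalling genes and 0 of 6 class II genes. Their medians were 0.25, 0.36, -0.07, 0.55, -0.10, 0.01, -0.04 and 0.65 on the log2 scale, in that order. The smallest p among the heavy chains was that of H2-Q5, a class Ib gene, with a log2 fold change of 2.75 ± 0.96 (adjusted p = 0.267 with edgeR). Sec61a1, the channel subunit through which heavy chains enter the endoplasmic reticulum, had 2.33 ± 0.81, and Nfya, a subunit of the factor that binds CCAAT, had -2.09 ± 0.73, each with an edgeR adjusted p of 0.267. In the remaining lists the smallest p belonged to Psmb6 (1.67 ± 0.99), Pomp, the proteasome assembly factor (1.37 ± 0.71), Psme1 (0.996 ± 0.491), Tyk2 (-1.68 ± 1.69) and H2-Ab1 (2.62 ± 0.98).

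Immunoproteasome subunits were also read as a share of themselves plus the standard subunit each replaces, in CPM per kb. Psmb8 made up a median of 77.2% of Psmb8 plus Psmb5 over the 24 libraries, from 31.2% to 99.4%, and passed 50% in 22 of 24. Psmb9 made up 83.7% of Psmb9 plus Psmb6, from 15.3% to 99.4%, and passed 50% in 19 of 24. Psmb10 made up 45.1% of Psmb10 plus Psmb7, from 5.37% to 99.1%, and passed 50% in 11 of 24. So per kb the induced form was the larger part in most libraries for the first and second pairs, but not for the third. By tissue, the Psmb9 share had a median of 71.9% in KC pancreas, passing 50% in 9 of 12. In KC blood its median was 88.3%, passing 50% in 9 of 9. The Psmb8 share differed less, with medians of 75.5% in KC pancreas and 81.0% in KC blood. The Psmb10 share went the other way, with medians of 51.2% in KC pancreas and 42.4% in KC blood. In WT libraries the Psmb9 share was 35.9% and 36.6% in pancreas and 87.1% in blood. In counts, WT pancreas held more Psmb9 than Psmb6, with 195 against 173 in Sample_W1P8 and 737 against 673 in Sample_W3P8. The shares thus depend on the length used, the union of all annotated exons. These are shares of RNA, and subunit levels in the protein complex were not measured.

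**Figure D4:**
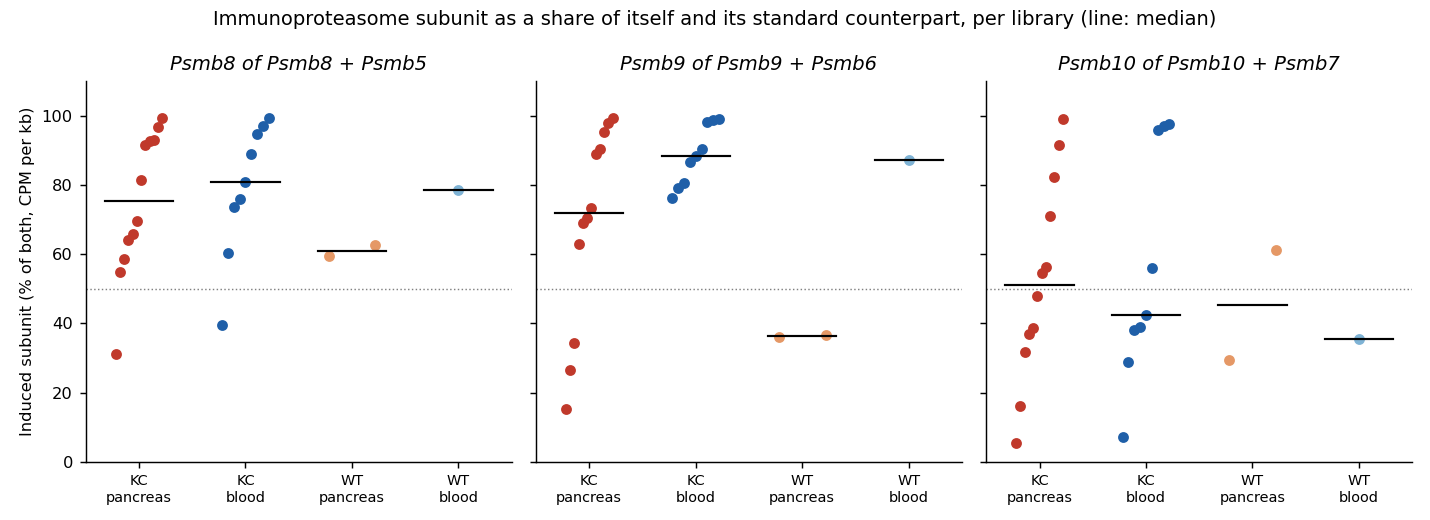
Share of the induced subunit in itself plus its standard counterpart, in percent of CPM per kb, for each library of KC pancreas, KC blood, WT pancreas and WT blood, with group medians as lines and 50% dotted. All 9 KC blood libraries lie above 50% for Psmb9 (76.3% to 99.1%), while the 12 KC pancreas libraries spread from 15.3% to 99.4%. For Psmb8 the spread is 31.2% to 99.4% in KC pancreas and 39.5% to 99.2% in KC blood. For Psmb10 it is 5.37% to 99.1% in KC pancreas and 7.16% to 97.6% in KC blood.

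Ages of 4 to 30 weeks were followed to ask how the pathway changes as the KC pancreas ages. Trends are given as log2 change per 10 weeks. In KC pancreas none of the 10 genes passed (edgeR, 9555 genes), where 0.293% of all tested genes did (28). None of the 10 had an unadjusted p under 0.05, against 8.95% of all tested genes. DESeq2 called none of the 10, with 735 calls over all genes. The median trend of the 10 was 0.36, beside -0.04 for all tested genes. Above 0 were 8 of 10, beside 47.5% of all tested genes. In KC blood none passed (edgeR, 9933 genes), where 0% of all tested genes did. At an unadjusted p under 0.05 there was 1 of the 10, against 8.76% of all tested genes. DESeq2 called none of the 10, with 412 calls over all genes. The median trend was -0.63, beside -0.12 for all tested genes. Above 0 were 2 of 10, beside 43.9% of all tested genes.

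Nlrc5 had the steepest trend in KC pancreas, 1.04 ± 0.55 (p = 0.0697, adjusted p = 0.619 with edgeR). At 4 weeks it had 3.18, 143 and 81.9 CPM in Sample_41P8, Sample_42P8 and Sample_43P8, and at 9 weeks 153 and 206 CPM in Sample_94P8 and Sample_95P8. At 13 weeks it had 3.65, 75.0 and 23.5 CPM in Sample_131P8, Sample_132P8 and Sample_133P8, at 20 weeks 51.8 and 776 CPM in Sample_204P8 and Sample_205P8, and at 30 weeks 586 and 41.7 CPM in Sample_302P8 and Sample_303P8. The highest values, those of Sample_205P8 and Sample_302P8, each stood beside a library of the same age with under 52 CPM. With the set as a term it was 0.37, and within set 1 alone (4 and 13 weeks) it was -0.03.

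Psmb9 in KC pancreas had 22.5, 159 and 16.1 CPM at 4 weeks, 109.5 and 26.2 CPM in Sample_95P8 and Sample_94P8 at 9 weeks, and 34.1, 213 and 60.7 CPM at 13 weeks. It had 124 and 72.6 CPM at 20 weeks and 341 and 122 CPM at 30 weeks, a trend of 0.74 ± 0.47 (adjusted p = 0.750 with edgeR). In KC blood it had 1344 and 15.6 CPM at 4 weeks in Sample_42B8 and Sample_43B8, 127 CPM at 9 weeks, and 128, 157 and 198 CPM at 13 weeks. It had 201 CPM at 20 weeks and 180 and 112 CPM at 30 weeks, a trend of -1.15 ± 0.45 (p = 0.0184, adjusted p = 0.501 with edgeR). Apart from the 2 libraries of 4 weeks, which are the highest and the lowest, blood values stayed between 112 and 201 CPM. Without Sample_42B8 the blood trend was 0.15, and within set 2 alone it was -0.07.

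The trends of the tissues were then tested against each other in the 21 KC libraries. None of the 10 differences passed (edgeR, 11059 genes), where 0.0543% of all tested genes did (6). DESeq2 called none of the 10, with 343 calls over all genes. With an unadjusted p under 0.05 there were 3 of the 10, against 8.33% of all tested genes: Psmb9 (1.91 ± 0.63, p = 0.00437, adjusted p = 0.291), Psmb8 (1.34 ± 0.60, p = 0.0323, adjusted p = 0.537) and B2m (1.05 ± 0.48, p = 0.0340, adjusted p = 0.542), all by edgeR. The median difference of the 10 was 0.75, beside 0.07 for all tested genes. Above 0 were 9 of 10, beside 52.6% of all tested genes. Without Sample_42B8 the Psmb9 difference was 0.57 (adjusted p = 0.942).

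B2m in KC pancreas had 5029, 5047 and 3136 CPM at 4 weeks, against 14059 and 11343 CPM in KC blood at 4 weeks. From 9 weeks on the tissues overlapped, with 4800 to 12449 CPM in KC pancreas and 4491 to 17353 CPM in KC blood. All 5 libraries of 4 weeks belong to set 1. The B2m trend was 0.35 ± 0.33 in KC pancreas and -0.69 ± 0.38 in KC blood; with the set as a term the blood trend was 0.26. Psmb8 in KC blood had 60.5 and 109 CPM at 30 weeks and 159 to 232 CPM in the 7 younger libraries, and its trend was -0.82 ± 0.47 (p = 0.0975, adjusted p = 0.640 with edgeR). In KC pancreas its libraries of 30 weeks were the highest and the third lowest, at 363 and 72.6 CPM.

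**Figure D5:**
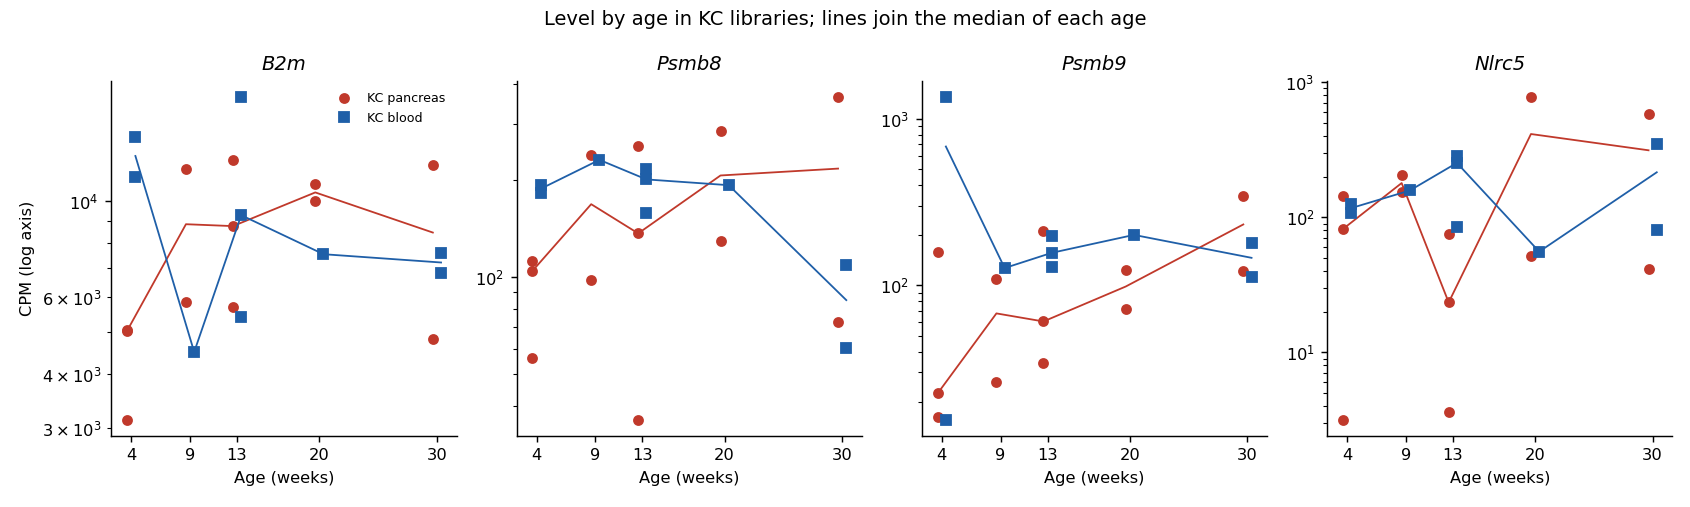
CPM on log axes against age in weeks for B2m, Psmb8, Psmb9 and Nlrc5 in KC pancreas (circles) and KC blood (squares), with lines joining the median of each age. B2m at 4 weeks is lower in every pancreas library than in either blood library, and the blood line of Psmb9 starts high because Sample_42B8 has 1344 CPM.

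The other pathway lists also had no gene past the threshold with age in either tissue or in the difference (edgeR). In KC blood, where 43.9% of all tested genes had an estimate above 0, estimates below 0 were found for 12 of 15 transcription factors, 9 of 11 interferon receptor and signalling genes, 4 of 4 PA28 genes, 9 of 12 other 20S subunits and 12 of 14 loading and trimming genes, but 6 of 11 other class I heavy chain genes. The smallest p among them was that of Socs1, an inhibitor of cytokine receptor signalling, at -3.02 ± 0.95 (adjusted p = 0.400 with edgeR). Irf1, a factor that induces class I genes, had -1.55 ± 0.57, and Psme2, a subunit of the PA28 activator, -1.24 ± 0.44. Both were highest in Sample_42B8 among KC blood libraries, at 574 CPM for Irf1 and 484 CPM for Psme2. That library was also the highest in blood for Tap1 (263 CPM). Of the 7 T cell markers, 6 had a blood trend below 0, with a median of -0.66 and none past the threshold. In the difference of the trends 7 of 7 were above 0, beside 52.6% of all tested genes, with a median of 0.60. In KC pancreas 4 of 8 acinar genes and 1 fibroblast gene, Col3a1 (-6.02 per 10 weeks, adjusted p = 0.0225 with edgeR), passed with a trend below 0. Above 0, 0 genes of these lists passed. Each age of KC pancreas lies in a single set, and no gene passed with the set as a term or within either set. The part of these markers in the class I values was not tested.

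KC pancreas was compared with WT pancreas at 9 and 30 weeks, with 4 KC libraries and 2 WT libraries at those ages. None of the 10 genes passed (edgeR, 12374 genes), where 0.226% of all tested genes did (28). At an unadjusted p under 0.05 there were 2 of the 10, against 5.79% of all tested genes. DESeq2 called none of the 10, with 175 calls over all genes. The median of the 10 was 0.37, beside 0.41 for all tested genes. The KC libraries of these ages are all of set 2 and the WT libraries of set 1, so genotype and set cannot be told apart. In simulated counts this fit recovered 0% of planted changes of log2 2 and 10% of those of log2 4. B2m had 11838, 5852, 4800 and 12124 CPM in KC pancreas (Sample_94P8, Sample_95P8, Sample_302P8 and Sample_303P8), against 5534 and 5020 CPM in WT pancreas (Sample_W1P8 and Sample_W3P8), with a log2 fold change of 0.77 ± 0.35 (p = 0.0294, adjusted p = 0.815 with edgeR). The groups overlapped, and the value was 0.11 without Sample_94P8, 0.38 without Sample_303P8 and 1.10 without Sample_95P8. Nlrc5 had 153, 206, 586 and 41.7 CPM in KC pancreas, against 7.41 and 121 CPM in WT pancreas, with a log2 fold change of 2.96 ± 1.29 (p = 0.0212, adjusted p = 0.784 with edgeR). Here too the groups overlapped; the value was 1.48 without Sample_302P8, 1.59 without Sample_W1P8 and 4.33 without Sample_W3P8. Psmb9 had 26.2, 109.5, 341 and 122 CPM in KC pancreas, against 18.5 and 58.8 CPM in WT pancreas (1.78 ± 1.36). Tap2 had 1.97, 27.6, 12.8 and 36.1 CPM in KC pancreas, against 190 and 22.4 CPM in WT pancreas (-2.01 ± 1.52). All 8 acinar genes fell in KC pancreas beside WT pancreas, and their part in the class I values was not tested. In the pathway lists 0 genes passed, and Cd74, the class II chaperone, had the smallest p of its list (3.71 ± 1.53, adjusted p = 0.761 with edgeR).

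KC blood and WT blood were compared at 30 weeks, where 1 WT library was assumed to vary as KC blood libraries do. None of the 10 genes passed (edgeR, 12496 genes), where 0% of all tested genes did; none of the 10 had an unadjusted p under 0.05, against 2.83% of all tested genes, and DESeq2 called none of the 10. H2-D1 had the smallest p of the 10, with 977 and 1481 CPM in KC blood, against 3135 CPM in WT blood (-1.41 ± 1.03, adjusted p = 1 with edgeR). H2-K1 had 1690 and 2815 CPM in KC blood, against 3865 CPM in WT blood. The set and the genotype cannot be told apart here either. In simulated counts this fit recovered 0% of planted changes even at a log2 size of 6, so it could not decide whether the genes differ.

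Between WT pancreas and WT blood, with 1 library each at 30 weeks, 2 of the 10 genes were higher in pancreas on CPM (Psmb10 and Nlrc5), and 6 of the 10 with TMM effective library sizes (B2m, Tap1, Tap2 and Tapbp in addition). On CPM the median log2 ratio was -0.33, beside -0.49 for 10537 genes. Psmb9 was the 1 gene of the 10 past a log2 ratio of 1 in size, with 58.8 CPM in WT pancreas and 192 CPM in WT blood (-1.71); 53.8% of all genes were past that size. There is no replicate for this pair and no test.

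The 10 genes did not move as a block from library to library. Over the 24 libraries, which differ in depth, set and tissue, the median Pearson r of log2(CPM + 1) over their 45 pairs was 0.12, beside 0.10 over all pairs of 7171 genes. The closest pair was H2-K1 with H2-D1 (r = 0.71), whose promoter windows share the printed X2 and Y letters. Their counts are uncertain because of near-identical copies. B2m, whose window holds the same letters at the same spacing, had r = -0.08 with H2-K1 and -0.08 with H2-D1. H2-K1 with Psmb8 had r = 0.56, Psmb9 with Nlrc5 0.47 and Tap1 with Psmb9, the pair with the shared promoter window and overlapping exons, 0.38. B2m and Tap2 ran against each other (r = -0.59). With Irf1, Psmb9 had r = 0.59 and H2-K1 0.54.

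Of all genes with a mean of at least 10 CPM, those whose levels over the 24 libraries were most like that of B2m were the ribosomal protein genes Rpl39 (r = 0.93), Rps20 (0.89) and Rplp2 (0.85). For H2-K1 they were Pwp2 (0.80), Ppm1a (0.78) and the ribosomal protein gene Rpl19 (0.73). For Psmb8 they were Lpxn (0.66), Asxl2 (0.62) and Fam103a1 (0.61), and for Nlrc5 Pdcd2 (0.69), Eml5 (0.68) and Atp9b (0.64). B2m thus had far closer partners than Psmb8 or Nlrc5, and no class I gene was among the nearest 3 of these 4 genes.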

How the data were processed

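RNA of sorted CD8 T cells was sequenced in 24 libraries. The deposited files hold raw read counts per gene symbol as the authors made them; TopHat, SAMtools, HTSeq, DESeq and mm10 are named in the submitters' processing notes, with versions, annotation and strand use not given in the sources used here. Of the tallied reads, 11.7% to 32.5% fell in genes; the 5 tallies of other reads were left out. CPM divides by all gene counts. Exon lengths, as the union of all annotated exons of a gene, and positions came from GENCODE M21. Promoters came from RefSeq GRCm38.p6.

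The test was the two-sided quasi-likelihood F-test of edgeR 4.0.16 (R 4.3.3), with robust settings and TMM scaling, on genes kept by filterByExpr at 10 counts; p-values were adjusted over all tested genes, with a threshold of 0.05. The SE is the absolute log2 fold change over the square root of F. Marker shares were tested as log2(percent + 0.001) by exact permutation. Scripts were tested on simulated data, with changes planted in 50 genes of each size (per 10 weeks for trends). Of changes of log2 2, edgeR recovered 10% between tissues and 10% in the difference of the trends. It recovered 26% for the trend in KC pancreas, 22% for that in KC blood and 0% against WT pancreas. Against WT blood it recovered 0% even at log2 6. A gene that did not pass is thus not shown to be unchanged. Alternatives were RLE scaling, no filter, DESeq2 1.42.0, leaving out Rn45s and Lars2 or each library, the set, age coding and title numbers. Fits between tissues within a single set had no age term. All 10 genes are named, with the gene of smallest p in each pathway list and the nearest 3 genes of B2m, H2-K1, Psmb8 and Nlrc5. Members and lists were chosen with earlier results of these data known, and trends within a set were added after seeing the data. A correlation with 1 further gene is not reported here.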

Additional observations from a re-analysis of the deposited data

Results flagged for a closer look

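Among the 9 KC blood libraries, a single value lay far from the others for 3 of the 10 genes. The 12 KC pancreas libraries were not checked in this way. Psmb9 had 1344 CPM in Sample_42B8 (4 weeks), where the next highest library had 201 CPM. Tap1 had 263 CPM in the same library, where the next had 116 CPM. H2-D1 had 6303 CPM in Sample_131B8 (13 weeks), where the next had 3302 CPM. About 1 in 20 groups is singled out in this way by chance where values are normally distributed. In these 9 libraries 31.2% of 7171 genes with a mean of at least 10 CPM over all 24 libraries were, so 3 of 10 is near the background.

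Tapbp was higher in pancreas than in blood in 9 of 9 same-numbered KC libraries on CPM, and lower in the 1 WT pair of 30 weeks, with a log2 ratio of -0.36, where the median of all genes was -0.49. The contrast did not hold with TMM effective library sizes, a recount of the pairs added after the CPM values were seen: Tapbp was then higher in pancreas in 8 of 9 KC pairs, and the WT pair had 96.8 CPM in pancreas and 95.7 CPM in blood. The difference between genotypes was not tested.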

How the results depend on the processing

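The count of class I genes past the threshold was 0 in each of the 6 comparisons under each alternative that ran, other than DESeq2 between tissues, which called 1 (Tapbp). Counts over all genes moved more. Between tissues there were 10 calls, against 34 without a filter, 487 with DESeq2, 65 without an age term, 54 with age as a number, 37 in set 1 alone, 5 in set 2 alone and 6 to 21 with 1 library left out. For the trend in KC pancreas there were 28, against 686 without a filter, 735 with DESeq2, 0 with the set as a term, 15 with age as a rank, 0 within either set and 10 to 31 with 1 library left out. For the trend in KC blood there were 0, against 102 without a filter, 412 with DESeq2 and 0 to 12 with 1 library left out. For the difference of the trends there were 6, against 0 with RLE, 343 with DESeq2, 1 with the set as a term and 0 to 13 with 1 library left out. For KC pancreas against WT pancreas there were 28, against 175 with DESeq2 and 4 to 29 with 1 library left out; for blood 0, against 10 with DESeq2 and 0 to 2. The fit without the WT blood library could not be run. The causes were not tested.

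Of 157 log2 values under alternatives other than leaving out a library, 16 turned sign, none of them past the threshold in either fit. Between tissues these were, with the set as a term, H2-K1 (-0.13) and Psmb8 (-0.13); without an age term, Nlrc5 (0.15); in set 1 alone, H2-K1 (-0.34), Tap1 (-1.12) and Psmb8 (-0.86); in set 2 alone, B2m (0.88), H2-D1 (0.0698), Psmb9 (0.0938) and Nlrc5 (1.32). The trend of Nlrc5 in KC pancreas turned in set 1 alone (-0.0278), and that of B2m in KC blood with the set as a term (0.26) and in set 2 alone (0.10). With 1 library left out, 24 of 352 values turned sign; the ranges between tissues were -0.33 to 0.29 for B2m, -0.28 to 0.24 for H2-K1, -0.30 to 0.27 for H2-D1, -0.48 to 1.0004 for Tap1, -0.26 to 0.24 for Psmb8, -1.37 to 0.31 for Psmb9 and -0.81 to 0.58 for Psmb10, and the trend of Psmb9 in KC blood ran from -1.37 to 0.15. RLE moved the median of all genes from -0.12 to -0.24 for the trend in KC blood and from 0 to 0.18 for KC blood against WT blood.

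Libraries of the same title number did not deviate together from the mean of their tissue and age (r from -0.07 to 0.02 over 7 pairs). Both pairs of 30 weeks have the same r by construction, so the 7 values are not separate checks. With the title number as a replicate block there were 14 calls over all genes and 0 among the class I genes, and H2-D1 (0.0899), Psmb8 (-0.14) and Psmb10 (0.86) turned sign. Low-level genes such as Tap2, with 5 counts in its lowest library, are limited by depth.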
